A study of Mus musculus with 10 samples.

Results

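The 10 genes described here code for proteins that astrocytes of the resting brain are known for: the water channel Aqp4, the glutamate transporters Slc1a2 and Slc1a3, the glutamine synthetase Glul, the connexins Gja1 and Gjb6, and Aldh1l1, S100b, Sox9 and Aldoc. They were picked by gene symbol, as established markers of homeostatic astrocytes, from the 24391 gene names of the count tables, and all 10 were found and passed the filter on low counts. Hippocampal RNA-seq came from 10 male mice of 10 to 14 weeks, of the strain that the study writes as C56BL/6J, with 1 library per mouse from both whole hippocampi. In the SAH group (n = 4, mice 1 to 4) a filament perforated the circle of Willis on 1 side, which put blood into the subarachnoid space, and only mice with a large drop in cerebral blood flow were kept. In the Sham group (n = 3, mice 5 to 7) the vessel was not perforated, and the Naive group (n = 3, mice 8 to 10) had no surgery. Tissue was taken 4 days after surgery. Operated mice were under isoflurane anesthesia, which the labels do not count as a drug treatment, so that SAH and Sham differ from Naive mice by anesthesia as well as by surgery. Hippocampus was sampled as a whole, so that neurons, glia and vessels are mixed in each library. Sham and Naive mice together are called control (n = 6).

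Astrocytes clear glutamate and potassium from the space around synapses, return glutamine to neurons, and pass ions and metabolites to each other through gap junctions. Their endfeet cover the vessels and carry the water channel. After injury astrocytes can become reactive, with a rise of intermediate filament genes such as Gfap and Vim, and the homeostatic genes can be kept, raised or lost.

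None of the 10 homeostatic genes was called by edgeR between SAH and control mice, where 4.68% of all genes tested were. DESeq2 called 1 of them, beside 6.87% of all genes, and 3 had an unadjusted p under 0.05 in edgeR, beside 17% of all genes. Slc1a2, Slc1a3, Gja1 and S100b differed by less than 3% and Sox9 by -5.26%. The values of Aldh1l1, Gjb6, Aqp4, Glul and Aldoc were 10.5% to 24.2% above control in SAH, and in each of them some SAH mice lay within the control range. In the same mice Gfap rose to a level 100% above control. A gene was called changed at an adjusted p under 0.10 in edgeR's quasi-likelihood test over 14993 genes (Benjamini-Hochberg). The study used the same threshold, but with DESeq2 as its test.

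Between 19743388 and 27254655 counts per mouse fell on genes, and the 10 genes took 0.727% to 0.862% of them. Their counts ran from 489 to 95689 per gene and mouse, far above the filter. Markers of hippocampal neurons were present in every library, with the granule cell gene Prox1 at 48.5 to 84.4 CPM (counts divided by the TMM-scaled size of the library) and the pyramidal cell gene Neurod6 at 245 to 313 CPM. Libraries differed in markers of choroid plexus, which lies beside the hippocampus: the summed level of 10 choroid plexus markers was 115, 233, 1292 and 903 CPM in SAH mice 1 to 4, 228, 66.5 and 867 CPM in Sham mice 5 to 7, and 55.8 to 77.8 CPM in Naive mice. None of these 10 markers was called between SAH and control by edgeR or DESeq2. However, 4 of 10 had an unadjusted p under 0.05 in edgeR, beside 17% of all genes, and their median log2 fold change was 1.19. Against Naive mice alone 10 of 10 had an unadjusted p under 0.05, and 2 were called higher by edgeR and 4 by DESeq2, beside 14.8%, 2.99% and 4.92% of all genes. Between Sham and Naive mice 5 of 10 had an unadjusted p under 0.05, beside 2.02% of all genes, and 0 were called by either tool, and between SAH and Sham mice there were 0 by any of these measures.

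Per length of their exons the genes covered a wide range of levels. In control mice Glul was highest, at 552 ± 29.3 RPKM (CPM per kilobase of exon, SD, n = 6). Aldoc with 300.2 ± 18.3 RPKM and Slc1a2 with 299 ± 9.83 RPKM came next, and their mice overlapped, so that neither ranks above the other. Below them came Slc1a3 at 192 ± 5.88 RPKM, Gja1 at 95.2 ± 5.59 RPKM, S100b at 65.4 ± 2.85 RPKM and Aqp4 at 36.4 ± 3.84 RPKM, each apart from its neighbours in every control mouse. Gjb6, at 19.4 ± 1.22 RPKM, and Aldh1l1, at 18.3 ± 1.38 RPKM, overlapped. The transcription factor Sox9 was lowest, at 7.42 ± 1.12 RPKM. The order of the group means was the same in SAH and in Sham mice. In Naive mice Slc1a2 (303 ± 9.57 RPKM, SD, n = 3) stood above Aldoc (293 ± 25.5 RPKM, SD, n = 3), again with overlap.

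**Figure D1:**
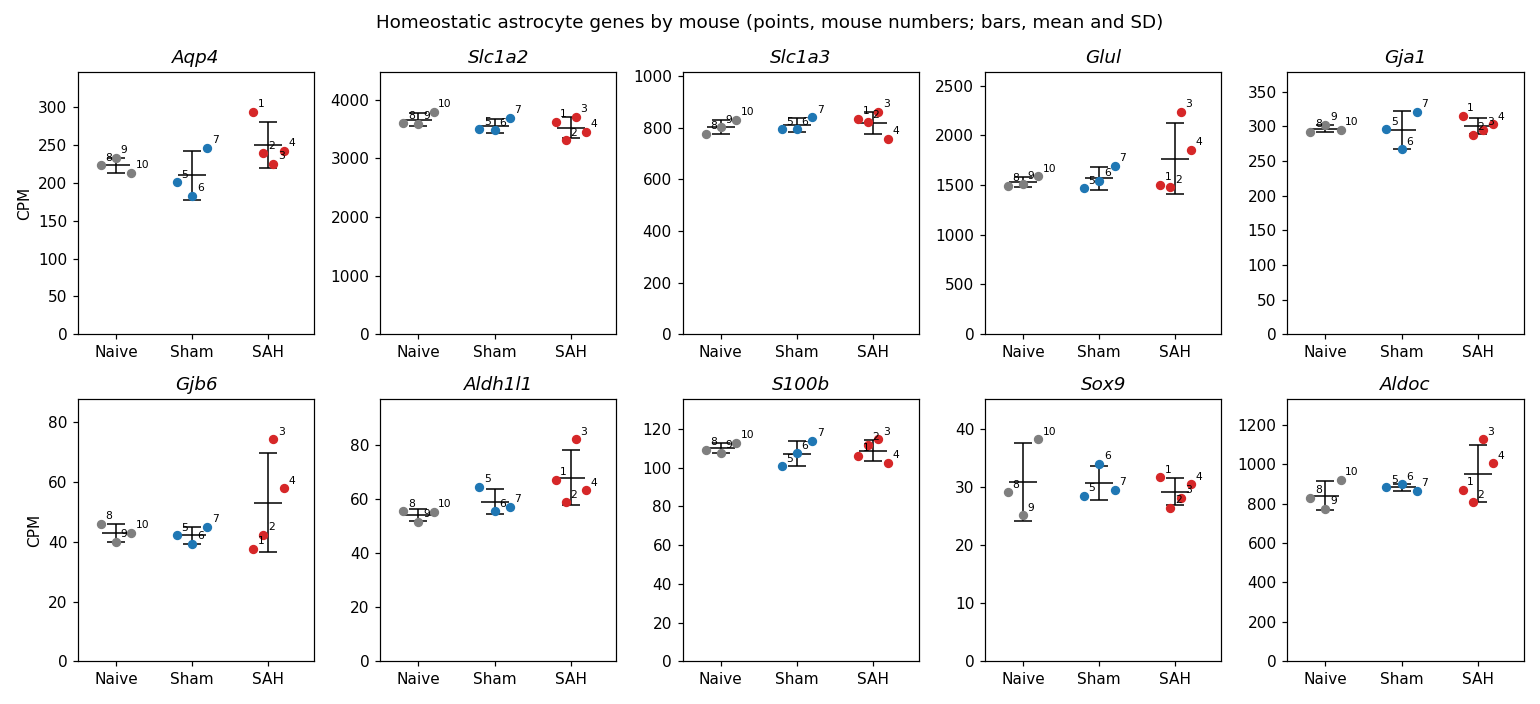
Level of each of the 10 genes (y axis, CPM, from 0) in Naive, Sham and SAH mice, where each point is a mouse with its number and the bars give mean and SD (n = 3, 3 and 4). SAH mice 3 and 4 lie above all control mice for Glul, Gjb6 and Aldoc, and the groups overlap for every gene when Sham and Naive are pooled.

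Aqp4 (mm9, chromosome 18, 15547903 to 15569491, - strand) codes for the water channel of the astrocyte endfoot at the vessel wall. It had 294, 239, 225 and 242 CPM in SAH mice 1 to 4, 201, 183 and 246 CPM in Sham mice 5 to 7, and 223, 234 and 213 CPM in Naive mice 8 to 10. SAH mouse 1 was above every control mouse, while the other SAH mice lay inside the control range. The SAH mice averaged 250.1 ± 30.1 CPM (SD, n = 4) and the control mice 217 ± 22.9 CPM (SD, n = 6), which is 0.21 on the log2 scale (standard error, SE, 0.084, adjusted p = 0.226). The 95% interval of the difference ran from 1.88% to 30.8%, at an unadjusted p of 0.0274. Leaving out SAH mouse 1 gave a log2 fold change of 0.12. Against Sham mice alone it was 0.25 (adjusted p = 0.439) and against Naive mice alone 0.16 (adjusted p = 0.485).

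Beside Aqp4, 14 other aquaporin and endfoot genes were tested, among them the anchoring complex of the channel, and for SAH against control 0 of the 14 were called in either direction by edgeR or DESeq2, or had an unadjusted p under 0.05. The median log2 fold change of the list was 0.014, beside -0.0024 over all genes tested. Against Naive mice alone 0 of the 14 were called by edgeR, and 2 were higher by DESeq2 and had an unadjusted p under 0.05, beside 4.92% and 14.8% of all genes. These were Aqp1 (adjusted p = 0.0633 from DESeq2) and Trpv4 (adjusted p = 0.0245 from DESeq2), named after their values were seen, which choroid plexus also uses. Aqp1 lay at 0.725, 1.07, 6.82 and 4.08 CPM in SAH mice 1 to 4, at 1.32, 0.588 and 4.59 CPM in Sham mice 5 to 7 and at 0.257 to 0.527 CPM in Naive mice. Trpv4 lay at no more than 1.26 CPM in SAH mice 1 and 2, at 4.50 and 4.20 CPM in SAH mice 3 and 4, at 1.57, 0.882 and 3.54 CPM in the Sham mice and at 0.424 to 1.08 CPM in Naive mice. For both genes SAH mice 3 and 4 and Sham mouse 7 were the highest, which were also the highest in the summed choroid plexus markers. Between Sham and Naive mice they were again the 2 genes at an unadjusted p under 0.05, beside 2.02% of all genes, and 0 were called by either tool. The part of choroid plexus in them was not tested.

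Slc1a2 and Slc1a3 take up glutamate released at synapses. Slc1a2 (chromosome 2, 102498840 to 102630941, + strand) had 3626, 3310.1, 3706 and 3451 CPM in SAH mice 1 to 4, 3497, 3482 and 3693 CPM in Sham mice and 3599, 3588 and 3793 CPM in Naive mice. SAH mice 2 and 4 were below all control mice and SAH mice 1 and 3 within them. The difference was -2.36% with a 95% interval from -7.46% to 3.02% (log2 fold change -0.035, SE 0.036, adjusted p = 0.657). Both ends of this interval lie within 10% of 0.

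Slc1a3 (chromosome 15, 8584124 to 8660807, - strand) had 835, 822, 862 and 759 CPM in SAH mice, 794, 794 and 841 CPM in Sham mice and 776, 803 and 832 CPM in Naive mice. The highest and the lowest of the 10 mice were both SAH mice, numbers 3 and 4. The difference was 1.57%, with an interval from -4.15% to 7.64% (log2 fold change 0.023, SE 0.039, adjusted p = 0.797). Per length, Slc1a2 stood to Slc1a3 at a ratio of 1.5 ± 0.075 (SD, n = 4) within SAH mice and 1.56 ± 0.036 (SD, n = 6) within control mice. In SAH mice 1 to 4 the ratio was 1.51, 1.40, 1.5 and 1.59, and control mice lay between 1.53 and 1.62. SAH mouse 4 was the only SAH mouse inside the control range. The difference did not pass a 2-sided exact permutation test over 210 splits of the mice (p = 0.124, adjusted p = 0.343 over 3 ratios, smallest possible p = 0.00952). With that mouse left out, all remaining SAH mice were by construction below all control mice. The adjusted p of the same exact permutation test was then 0.0357, which follows from the choice of mouse and is not separate evidence.

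Glul (chromosome 1, 155747059 to 155756853, + strand) makes glutamine from glutamate and ammonia, and it overlaps the microRNA gene Mir8114 on its own strand, where reads on both were discarded by the authors. It had 1500.1, 1475, 2235 and 1851 CPM in SAH mice 1 to 4, 1465, 1541 and 1693 CPM in Sham mice and 1494, 1512 and 1589 CPM in Naive mice. SAH mice 3 and 4 were above every control mouse, whereas SAH mice 1 and 2 were among the lower values. The SAH mice averaged 1765 ± 357 CPM (SD, n = 4) and the control mice 1549 ± 82.3 CPM (SD, n = 6). The difference of 13.9% had an interval from -1.01% to 31.2% (log2 fold change 0.19, SE 0.094, adjusted p = 0.336). Leaving out SAH mouse 3 gave a log2 fold change of 0.056.

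Among 21 tested genes of glutamate, glutamine and GABA transport and metabolism beside these, 1 was called higher and 1 lower by edgeR, beside 4.68% of all genes in either direction. DESeq2 called 3 of the 21 (6.87% of all genes), and 7 had an unadjusted p under 0.05 (17% of all genes). Slc38a3, a glutamine exporter of astrocytes, was 13.9% higher (log2 fold change 0.19, SE 0.053, adjusted p = 0.0856). Slc6a9, a glycine transporter, was lower (log2 fold change -0.24, SE 0.059, adjusted p = 0.0521). Neither call was steady: with each mouse left out in turn, Slc38a3 was called in 3 and Slc6a9 in 5 of 10 fits. Slc38a3 kept its call without SAH mouse 1, SAH mouse 2 or Sham mouse 7 and lost it without any other mouse, and Slc6a9 lost its call without SAH mouse 3, SAH mouse 4 or any Naive mouse. The median of the list was -0.022.

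Gja1 and Gjb6 code for the main gap junction proteins of astrocytes. Gja1 (chromosome 10, 56097106 to 56110225, + strand) had 315, 288, 295 and 303 CPM in SAH mice, 296, 267 and 321 CPM in Sham mice and 292, 302 and 295 CPM in Naive mice. Every SAH mouse was within the control range. Its difference of 1.59% had an interval from -5.27% to 8.96% (log2 fold change 0.023, SE 0.047, adjusted p = 0.833).

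Gjb6 (chromosome 14, 57742138 to 57752448, - strand) had 37.6, 42.4, 74.4 and 57.9 CPM in SAH mice 1 to 4, 42.2, 39.3 and 45.1 CPM in Sham mice and 46.1, 40.1 and 43.0 CPM in Naive mice. SAH mice 3 and 4 were above all control mice, SAH mouse 2 was among them and SAH mouse 1 was below them all. The log2 fold change of 0.31 was the largest of the 10 genes, and so was its standard error of 0.14 (adjusted p = 0.289, unadjusted p = 0.048, interval 0.218% to 53.9%). It was 0.11 without SAH mouse 3, and 0.44 and called without SAH mouse 1 (adjusted p = 0.0761 from edgeR). The ratio of Gjb6 to Gja1 per length was 0.169, 0.208, 0.356 and 0.270 in SAH mice 1 to 4, against 0.188 to 0.223 in control mice. The groups did not differ beyond this spread (2-sided exact permutation test, p = 0.248, adjusted p = 0.343). Without SAH mouse 1, which had the lowest ratio of all mice, the log2 difference of the ratio rose from 0.24 to 0.41. The adjusted p of the exact permutation test was then 0.0714, which depends on that choice of mouse.

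Of 10 other connexins and pannexins tested, 1 was called higher and 2 lower by edgeR, 3 were called by DESeq2 and 6 had an unadjusted p under 0.05, beside 4.68%, 6.87% and 17% of all genes. Gjb2, which astrocytes and meningeal cells use, was 57.7% higher (log2 fold change 0.66, SE 0.17, adjusted p = 0.0625) and lost its call without SAH mouse 2, SAH mouse 4 or any Naive mouse. Gjc3, a connexin of oligodendrocytes, fell by 0.54 in log2 (SE 0.075, adjusted p = 0.00325) and stayed called with any single mouse left out. Beside it stood a lower level of oligodendrocyte markers as a whole: 11 of 11 were lower, and their sum was 5065 to 6437 CPM in SAH and 7431 to 10260 CPM in control mice. Gjb2 moved beside meningeal and perivascular fibroblast markers, of which 9 of 10 were higher, with a sum of 199 to 391 CPM in SAH and 145 to 191 CPM in control. The part of these cells in the connexin values was not tested, and in bulk tissue fewer cells of a type and less RNA per cell cannot be told apart.

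Aldh1l1 (chromosome 6, 90500842 to 90549165, + strand), a folate enzyme and a general marker of astrocytes, came nearest to a call. It had 67.0, 58.8, 82.1 and 63.2 CPM in SAH mice 1 to 4, 64.4, 55.5 and 57.1 CPM in Sham mice 5 to 7 and 55.4, 51.5 and 55.3 CPM in Naive mice 8 to 10. All SAH mice were above all Naive mice, and Sham mouse 5 lay above SAH mice 2 and 4. The SAH mice averaged 67.8 ± 10.1 CPM (SD, n = 4) and the control mice 56.5 ± 4.27 CPM (SD, n = 6), 19.6% higher with an interval from 5.76% to 35.3% (log2 fold change 0.26, SE 0.083). Its unadjusted p of 0.00762 was 909th in the order of all genes tested, and its adjusted p was 0.126. DESeq2 gave almost the same log2 fold change, 0.26, with an adjusted p of 0.0617, and so called it. By edgeR it was also called without SAH mouse 2 (adjusted p = 0.0495) and without Sham mouse 5 (adjusted p = 0.0915). Leaving out SAH mouse 3 gave a log2 fold change of 0.16.

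S100b (chromosome 10, 75716581 to 75724064, + strand), a calcium-binding protein, had 106, 112, 115 and 103 CPM in SAH mice, 101, 107 and 114 CPM in Sham mice and 109, 108 and 113 CPM in Naive mice. The difference between the means was 0.183%, with an interval from -6.29% to 7.11% (log2 fold change 0.0026, SE 0.045, adjusted p = 0.984). It was the gene with the smallest difference of the 10.

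Sox9 (chromosome 11, 112643524 to 112649071, + strand), a transcription factor that adult astrocytes keep, had 31.7, 26.5, 28.1 and 30.5 CPM in SAH mice, 28.5, 34.0 and 29.5 CPM in Sham mice and 29.1, 25.1 and 38.3 CPM in Naive mice. Its highest and lowest values, 38.3 and 25.1 CPM, both came from Naive mice. The difference of -5.26% had the interval -18.3% to 9.91% (log2 fold change -0.078, SE 0.10, adjusted p = 0.721), so that for this low gene a fall of 10% was within the error. Of 14 other transcription factors of astrocytes, 0 were called by edgeR, 5 had an unadjusted p under 0.05 (17% of all genes) and 2 were lower by DESeq2 (Sox8 and Nfia, beside 6.87% of all genes), with a median log2 fold change of -0.11. Sox8 is also a gene of the oligodendrocyte lineage, and 11 of 11 oligodendrocyte markers were lower in the same mice. Their part in the median was not tested.

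Aldoc (chromosome 11, 78136575 to 78141280, + strand), the aldolase of brain, had 869, 807, 1127 and 1004 CPM in SAH mice 1 to 4, 882, 898 and 866 CPM in Sham mice and 829, 774 and 919 CPM in Naive mice. SAH mice 3 and 4 were again above all control mice and SAH mice 1 and 2 among them. The difference of 10.5% had an interval from -1.64% to 24.1% (log2 fold change 0.14, SE 0.078, adjusted p = 0.372), and leaving out SAH mouse 3 gave 0.055. Its relative Aldoa, which many cell types use, differed by 3.19% (log2 fold change 0.045, adjusted p = 0.439). The ratio of Aldoc to Aldoa per length was 0.265, 0.243, 0.326 and 0.300 in SAH mice 1 to 4, and control mice lay between 0.241 and 0.280, without a difference beyond the spread (2-sided exact permutation test, p = 0.343, adjusted p = 0.343). Of 14 aldolase, glycolysis and folate genes beside the 10, 0 were called by edgeR or DESeq2 and 3 had an unadjusted p under 0.05, near the 17% of all genes.

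**Figure D2:**
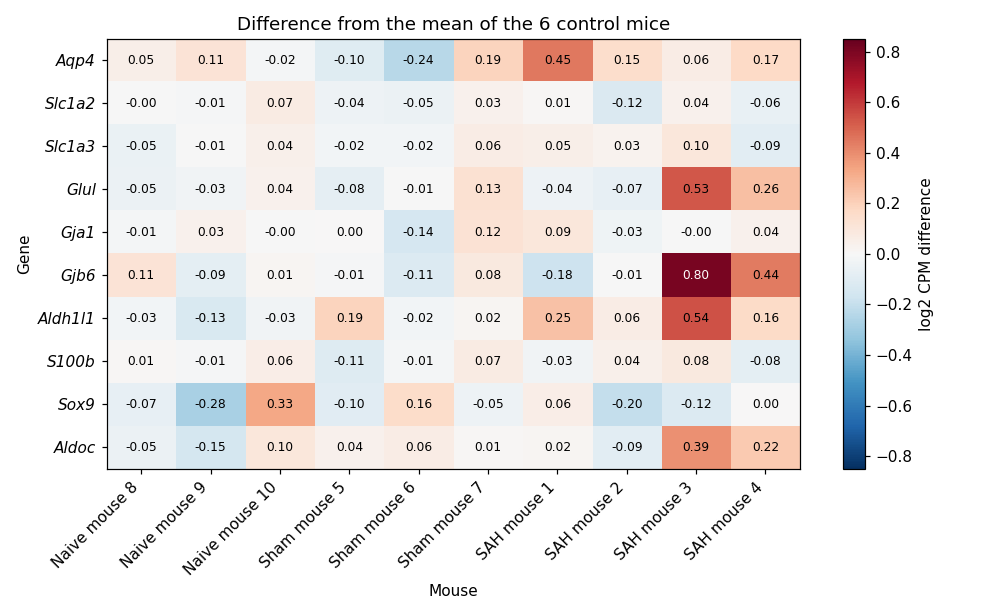
Difference in log2 CPM of each gene (rows) in each mouse (columns) from the mean of the 6 control mice, as colour and number. Gjb6, Glul, Aldoc and Aldh1l1 are high in SAH mouse 3 (0.80, 0.53, 0.39 and 0.54), and Aqp4 is highest in SAH mouse 1 (0.45).

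Glul, Gjb6 and Aldoc, grouped here after their values were seen, were high in the same SAH mice. Relative to the control mean, SAH mouse 3 was at 0.53, 0.80 and 0.39 for these genes on the log2 scale and SAH mouse 4 at 0.26, 0.44 and 0.22. SAH mice 1 and 2 were between -0.18 and 0.02 for all of them. Aldh1l1 was also highest in SAH mouse 3, at 0.54, but next in SAH mouse 1, at 0.25, with SAH mouse 4 at 0.16, below Sham mouse 5 at 0.19. Aqp4 was highest in SAH mouse 1, and Gja1 and S100b had SAH mice within 0.10 of the control mean. The SD among SAH mice was 4.92 times that among control mice for Gjb6, 3.77 times for Glul and 2.39 times for Aldoc, on the log2 scale. Over all genes tested 27.3% had a ratio over 2, so that 3 of 10 is near the background, and the SD was larger in SAH for 8 of the 10 genes and for 68.7% of all genes.

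Gfap was also highest in SAH mice 3 and 4, with 768, 495, 1142 and 843 CPM in SAH mice 1 to 4 and 350 to 478 CPM in control. SAH mouse 1, with a Gfap level above all control mice, had Glul and Aldoc at control level and the lowest Gjb6. SAH mice 3 and 4 also had the highest sums of choroid plexus markers, 1292 and 903 CPM. Sham mouse 7, with a sum of 867 CPM, had 1693 CPM of Glul, the highest of the control mice, and 45.1 CPM of Gjb6 and 866 CPM of Aldoc, both within the range of the other control mice. The part of choroid plexus tissue in these values was not tested.

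**Figure D3:**
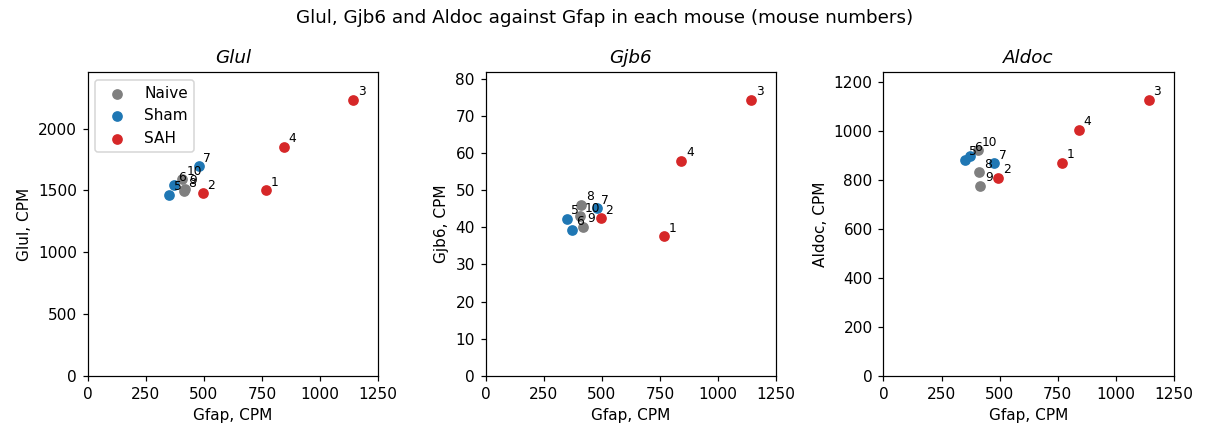
Levels of Glul, Gjb6 and Aldoc (y axes, CPM) against Gfap (x axis, CPM) in each mouse, coloured by group and numbered. SAH mice 3 and 4 are apart at the upper right, and SAH mouse 1 has 768 CPM of Gfap with Gjb6, Glul and Aldoc near or below the control mice.

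Since these genes shared a pattern among mice, the DNA just before their start sites is shown: 150 bases 5′ to 3′ on the gene's strand, from RefSeq on GRCm38.p6, a later build than that of the counts. All 3 genes matched the RefSeq table, and of the start sites listed for Aldoc the one at the lower coordinate is printed. Capitals mark matches to the GC box, spelled GGGCGG, to the box spelled CCAAT, or to the SOX core, spelled AACAAT, each searched on both strands.
Glul, chr1:153899779-153899928 (+ strand): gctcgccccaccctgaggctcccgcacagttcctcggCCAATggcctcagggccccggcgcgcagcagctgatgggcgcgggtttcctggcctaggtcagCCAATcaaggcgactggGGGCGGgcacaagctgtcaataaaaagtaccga
Gjb6, chr14:57133612-57133761 (- strand): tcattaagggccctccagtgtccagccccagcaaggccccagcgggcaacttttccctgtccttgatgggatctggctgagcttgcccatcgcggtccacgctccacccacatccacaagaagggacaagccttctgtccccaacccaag
Aldoc, chr11:78322923-78323072 (+ strand): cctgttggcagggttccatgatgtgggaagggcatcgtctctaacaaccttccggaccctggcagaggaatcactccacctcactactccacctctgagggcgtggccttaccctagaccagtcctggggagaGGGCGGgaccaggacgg
Glul held 1 GC box and 2 CCAAT boxes, and Gjb6 held none of the 3 motifs. Aldoc held 1 GC box at the printed start site, and none of the 3 motifs at its other listed site. Of 32851 promoter windows of this length in the table, 28.6% held a GC box, 24.5% a CCAAT box and 5.31% the SOX core. No motif of the 3 was present in all of the genes, and these matches are letters only, not binding.

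Over the 10 genes, 0 were called between SAH and control by edgeR, beside 4.68% of all genes tested (3.13% higher and 1.54% lower), and DESeq2 called 1 (Aldh1l1), beside 6.87% of all genes. At an unadjusted p under 0.05 there were 3 (Aldh1l1, Aqp4 and Gjb6), beside 17% of all genes. In 0 of 10 genes were the SAH mice fully apart from the control mice, beside 5.2% of all genes. The median log2 fold change was 0.083, beside -0.0024 over all genes tested, with 8 genes positive and 2 negative. The signs were not steady: without SAH mouse 3 or Sham mouse 6 there were 6 positive and 4 negative.

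Against Sham mice alone 0 of 10 were called by edgeR (background 0.72%) and 0 by DESeq2 (background 2%). Aqp4 was the 1 gene at an unadjusted p under 0.05, where all genes had 9.69%, and in 0 of 10 were the SAH and Sham mice fully apart (background 9.48%). The values for Aldh1l1 (0.20, adjusted p = 0.553) and Gjb6 (0.33, adjusted p = 0.594) had intervals that included 0. Against Naive mice alone edgeR called 0 of 10 (background 2.99%) and DESeq2 called Aldh1l1 (adjusted p = 0.0532, background 4.92%). Aldh1l1 was 25.0% higher than in Naive mice, with an interval from 7.85% to 44.9% (log2 fold change 0.32, SE 0.098, adjusted p = 0.14 from edgeR), and was the 1 gene at an unadjusted p under 0.05, beside 14.8% of all genes. It was also the 1 gene of 10 whose SAH and Naive mice did not overlap, beside 13.8% of all genes. These comparisons share the SAH mice, so they are not separate evidence.

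Sham and Naive mice differ by surgery without hemorrhage and by its anesthesia. Between them 0 of 10 were called by edgeR, which called 0.00661% of all genes, and 0 by DESeq2, which called 0.0132%. At an unadjusted p under 0.05 there were 0, beside 2.02% of all genes. Log2 fold changes ran from -0.090 for Aqp4 to 0.12 for Aldh1l1. Aldh1l1 was the 1 gene whose mice did not overlap (background 8.99%), with its lowest Sham mouse at 55.5 CPM and its highest Naive mouse at 55.4 CPM. With 3 mice in each group the intervals were wide, and for Gjb6 they ran from -26.7% to 30.6%.

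**Figure D4:**
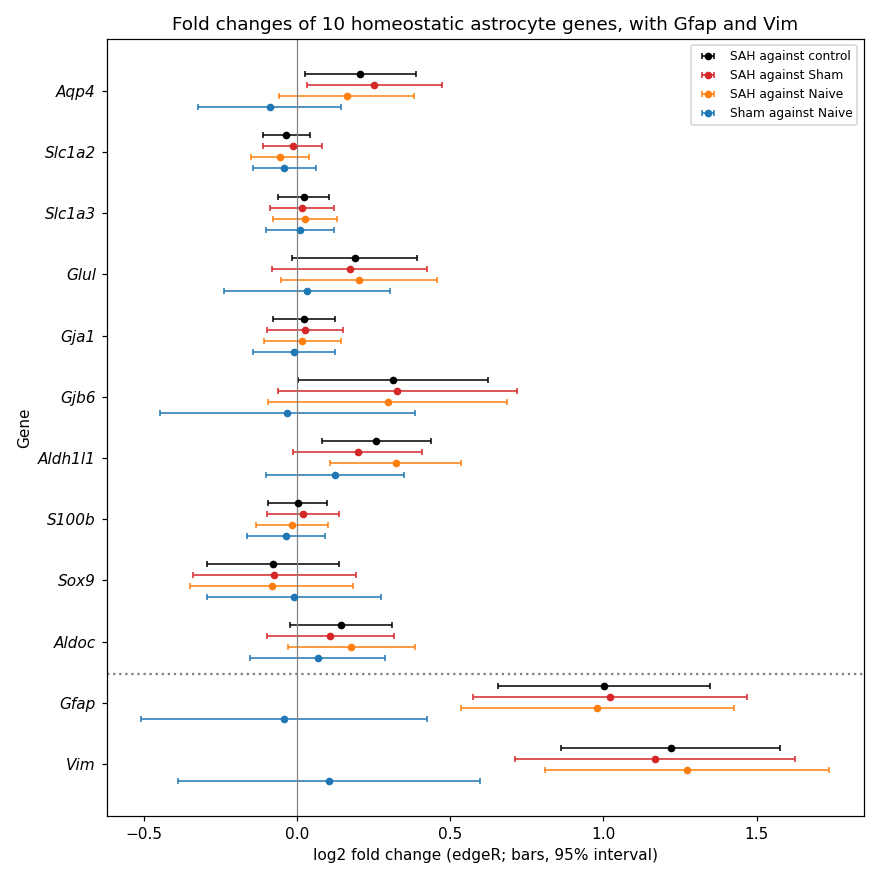
Log2 fold change (x axis) with 95% interval of the 10 genes in each of 4 comparisons, with Gfap and Vim below the dotted line. The intervals of the 10 genes for SAH against control end at or below 0.62, whereas those of Gfap and Vim begin at 0.66 and 0.86.

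Gfap and Vim, by contrast, were called. Gfap, an intermediate filament, averaged 405 ± 44.0 CPM (SD, n = 6) without hemorrhage and 812 ± 266 CPM (SD, n = 4) after it, a rise of 1.0 in log2 (SE 0.16, adjusted p = 0.00535) and an interval from 57.6% to 154%. Vim, also a filament gene, rose by 1.22 in log2 (SE 0.17, adjusted p = 0.00272), from 29.5 to 38.2 CPM in control mice to 50.9 to 117 CPM. Both were called with any single mouse left out. The interval of each of the 10 homeostatic genes ended below the lower end of the interval of Gfap, the highest being that of Gjb6 at 53.9%.

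Of 18 reactive genes 16 were tested for SAH against control. Of these 16, 10 were called higher and 0 lower, beside 4.68% of all genes called in either direction, and the median log2 fold change was 0.87. The other 6, such as Cd44 (log2 fold change -0.016) and Nes (0.17), were not called. Against Sham mice alone 3 of 17 were called by edgeR and 8 by DESeq2, beside 0.72% and 2% of all genes, and the median was 0.85. Against Naive mice alone 5 of 17 and 9 were called, beside 2.99% and 4.92% of all genes, and the median was 0.94. Besides Vim, the largest of the called genes were Lcn2, Cxcl10 and Aspg. Timp1 and Steap4 did not pass the filter on low counts in this comparison and are outside this ranking. Timp1 averaged 1.39 CPM in SAH and 0.144 CPM in control mice, and Steap4 0.736 and 0.230 CPM. Lcn2, a secreted lipocalin, was counted 17 to 91 times per SAH mouse and 0 to 9 times per control mouse (log2 fold change 3.74, adjusted p = 0.015) and was called with any mouse left out. SAH mouse 3 was the highest at 4.60 CPM, beside at most 1.02 CPM in the other SAH mice. The log2 fold change of Lcn2 was 2.68 without this mouse and 4.43 without Sham mouse 7. Cxcl10, a chemokine, was counted 10 to 22 times per SAH mouse and 2 to 11 times per control mouse (log2 fold change 1.36, adjusted p = 0.0625) and was called in 3 of the 6 fits with a mouse left out that could test it, and not when SAH mouse 1, Naive mouse 9 or Naive mouse 10 was the one left out. Aspg, an asparaginase, lay at 1.62 to 4.14 CPM after SAH and at 1.03 to 1.43 CPM in control mice (log2 fold change 1.04, adjusted p = 0.0358) and lost its call without SAH mouse 4. Genes of this list are also used by microglia, endothelium and infiltrating cells. Of 8 microglia markers 2 were higher, with a sum of 388 to 467 CPM in SAH and 358 to 403 CPM in control, and of 8 endothelial markers 3 were higher, with a sum of 139 to 265 CPM and 124 to 168 CPM. The part of these cells was not tested.

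A wider list held other homeostatic markers of astrocytes. Of 31 such markers 30 were in the tables and tested, and edgeR called 1 higher and 0 lower, a share near the 4.68% of all genes. DESeq2 also called 1, and 8 of 30 had an unadjusted p under 0.05, beside 17% of all genes. The median of the list was 0.026, and 0 of 10 neuron markers and 0 of 8 ependymal markers were called by edgeR or DESeq2, with 0 and 1 at an unadjusted p under 0.05.

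**Figure D5:**
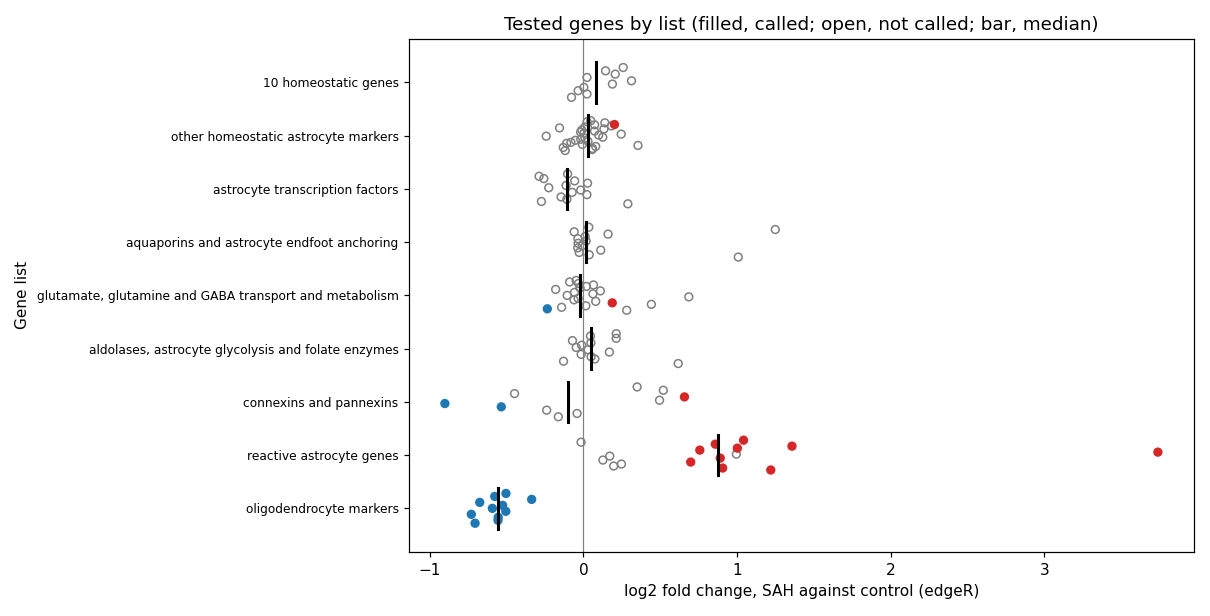
Log2 fold change of SAH against control (x axis) for the tested genes of each list (rows), where filled points are called, open points are not called and the bar is the median. The 10 homeostatic genes and the other homeostatic markers are centred near 0 (medians 0.083 and 0.026), reactive genes lie to the right (median 0.87) and oligodendrocyte markers to the left (median -0.56).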

How the data were processed

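Total RNA (integrity number above 9) from 1 library per mouse was depleted of ribosomal RNA and sequenced strand-specifically in pairs of 50 bases. The authors deposited raw counts, each the number of read pairs on a gene name, made by alignment to mm9 with STAR and counting with featureCounts 1.6.2 over UCSC exons, with reads in several places or genes discarded. Reads were not reprocessed. Coordinates are those of the count tables.

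Counts were tested with edgeR 4.0.16 (TMM, filterByExpr with a minimum count of 10, quasi-likelihood test, Benjamini-Hochberg over all genes tested, threshold 0.10) in R 4.3.3. SAH against control was fitted on 2 groups, and pairwise comparisons on 3. Standard errors are the log2 fold change over the square root of F. Ratios of gene pairs were compared by exact permutation. Alternatives were DESeq2 1.42.0, other scalings, no filter, a threshold of 0.05, other groupings and leaving out each mouse. The fits across all genes were run on a single simulated data set, where more of the calls of DESeq2 than of edgeR were false. That set used the spread that edgeR estimated, the same in both groups, and larger changes than those of the 10 genes. It therefore does not settle the DESeq2 call of Aldh1l1. The genes and lists were chosen with earlier results of these data known. All 10 genes are named, with Gfap, Vim and Aldoa, and from each other list the called genes, at most the 4 largest in each direction, except called genes that enter the counts but are not reported here. Every pair of libraries differed by more than sampling noise.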

Additional observations from a re-analysis of the deposited data

How the results depend on the processing

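For SAH against control, 156 of 160 values of the 10 genes under alternative settings stayed on the same side of the threshold, as did 130 of 130 against Sham, 128 of 130 against Naive and 120 of 120 between Sham and Naive. The number of the 10 genes called, 0, became 1 with DESeq2 for SAH against control and for SAH against Naive, Aldh1l1 in both. It was 0 to 1 with each mouse left out: 1 without SAH mouse 1 (Gjb6), SAH mouse 2 (Aldh1l1) or Sham mouse 5 (Aldh1l1) for SAH against control, and 1 without SAH mouse 2 (Aldh1l1) for SAH against Naive. The cause was not tested. Over the other astrocyte lists 16 genes were called, 10 of them reactive genes, beside 4.68% of all genes tested. With a mouse left out 10 to 24 were called. The lowest count, 10, came without Naive mouse 8 or 9, and 7 of these were reactive genes. The count over all genes, 701, also fell without these mice, to 361 and 427.

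With a mouse left out, the log2 difference of the ratio of Gjb6 to Gja1 was 0.054 to 0.41 (0.24 with all mice), and that of Slc1a2 to Slc1a3 was -0.084 to -0.025 (-0.057 with all mice). The adjusted p of the exact permutation test was under 0.10 only at the ends 0.41, without SAH mouse 1, and -0.084, without SAH mouse 4. In each case the mouse left out was the SAH mouse that stood furthest against the difference, so these fits are not separate evidence.

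The number of all genes called moved more. For SAH against control 701 became 369 at a threshold of 0.05 and 308 to 1093 with a mouse left out. For SAH against Sham 109 became 302 with DESeq2, 182 without the filter, 49 at 0.05, 12 with only these mice in the fit and 6 to 215 with a mouse left out. For SAH against Naive 453 became 744, 260 (0.05), 282 (only these mice) and 109 to 683 (a mouse left out). For Sham against Naive 1 became 0 to 3.

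No paired analysis was possible because the mouse numbers run from 1 to 10 and no number is shared between groups. The 10 genes had 489 counts or more in every mouse. With 4 mice against 6 their 95% intervals for SAH against control reached from -18.3% to 53.9%. Which mice share a cage or a day of surgery was not given in the sources used here.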
